A study of Mus musculus with 8 samples.

Results

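The apical progenitors at the G2/M angle are the nuclei that the authors placed in cluster 4 and gave a cell cycle angle of at least 1 π and under 7/4 π. They numbered 3634 of the 10948 nuclei of cluster 4 (33.2%) and of the 67319 nuclei in all. Of these, 1745 came from wildtype and 1889 from Pantr2 knockout samples. The 4 wildtype samples held 580, 470, 285 and 410 such nuclei, and the 4 knockout samples held 548, 676, 380 and 285.

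All nuclei came from the dorsal telencephalon, the embryonic tissue that gives rise to the cerebral cortex, of C57BL/6J embryos at E15.5. Wildtype embryos were compared with Pantr2-/- embryos, in which the gene of a long noncoding RNA is knocked out, and the labels list no treatment. Transcripts of frozen, isolated nuclei were tagged with unique molecular identifiers (UMIs) in droplets, so that each UMI stands for 1 captured molecule. The labels give each group replicate numbers 1 to 4 and do not say whether the samples came from separate litters or pools, so p-values measure the spread between these samples.

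Apical progenitors, also called radial glia, line the ventricle of the embryonic cortex and divide there to renew themselves and to give rise to intermediate progenitors and neurons. Their nuclei move with the cell cycle and reach the ventricular surface for mitosis. Before mitosis a cell builds up cyclin B, mitotic kinases, condensins, kinetochore proteins and the motors of the spindle, while the helicases that license DNA for replication belong to late G1 and S phase. Many genes of the late cell cycle carry a short promoter element, the cell cycle genes homology region (CHR), through which the MuvB complex acts with its partners.

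The sums over the G2/M-angle nuclei held 874786 to 2187350 UMIs per sample, and this depth limits what can be seen in weakly expressed genes. Any pair of the 8 libraries shared 8 to 30 barcodes, and over all 28 pairs 2 shared barcodes were at the G2/M angle in both libraries. Counts of Pantr2 itself were not analysed here, and the labels alone give each sample its genotype. The deposited tables give all 8 libraries 1 library date.

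The label was set beside 4 markers, Pax6, Top2a, Mki67 and Kif11. The authors computed the angle from these same counts, so the levels describe the members and are no test of the label. Pax6 is a transcription factor of cortical apical progenitors, and Top2a untangles DNA before chromosomes separate. Mki67 coats mitotic chromosomes, and Kif11 is the motor that pushes spindle poles apart. Levels are given in CPM, the UMIs of a gene scaled to the same total in every sum of nuclei, as mean ± SD over 4 samples. In wildtype, Top2a stood at 713, 793, 658 and 742 CPM at the G2/M angle, 285 ± 29.3 at the S-phase angle (0.5 to 1 π) and 17.9 ± 6.99 at the remaining angles of cluster 4. Kif11 stood at 587 ± 21.9, 212 ± 26.9 and 11.3 ± 3.58 CPM in the same 3 classes, and Mki67 at 223 ± 44.8, 86.6 ± 7.53 and 12.7 ± 8.69 CPM. For these 3 genes, all 4 wildtype samples were higher at the G2/M angle than any of them was in the sums of the other classes. Nuclei close to the lower edge of the window were not set apart in this way. Pax6 stood at 73.6 ± 2.40 CPM at the G2/M angle and 55.4 ± 6.25 in the other cluster 4 nuclei. Nuclei of cluster 5 in the same angle window lay at other angles, with a mean of 1.569 π ± 0.00862 in wildtype against 1.116 π ± 0.0126 for the cluster 4 members. They held less of all 4 genes than the members as a whole, with Pax6 at 26.0 ± 4.81, Top2a at 45.2 ± 4.53, Mki67 at 38.7 ± 8.18 and Kif11 at 14.1 ± 7.22 CPM.

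The markers did not fill the whole window. Most members lay between 1 and 5/4 π, and the 195 nuclei at 5/4 π or above (5.37%) gave 7 UMIs of Top2a in wildtype and 12 in knockout. Top2a there came to 28.5 CPM over the pooled wildtype nuclei and Kif11 to 40.7, against 765 and 614 CPM between 1 and 5/4 π. Pooled in the same way, these wildtype members held 28.5 CPM of Top2a, 44.8 of Mki67 and 40.7 of Kif11, beside 44.6, 39.8 and 15.2 CPM in the cluster 5 nuclei. As a description, these levels go with the G2/M part of the label below 5/4 π and against it above. At 5/4 π or above, Pax6 stood at 81.4 CPM over the pooled wildtype nuclei. Just inside the lower edge, in the first 0.05 π of the window, wildtype Top2a was 690 ± 63.9 and Cenpe 262 ± 25.2 CPM, and in the 0.05 π just outside they were 595 ± 8.65 and 152 ± 22.1 CPM. At the upper edge, the 33 wildtype nuclei just inside gave 1 UMI of Top2a and the 34 just outside gave 0.

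**Figure D1:**
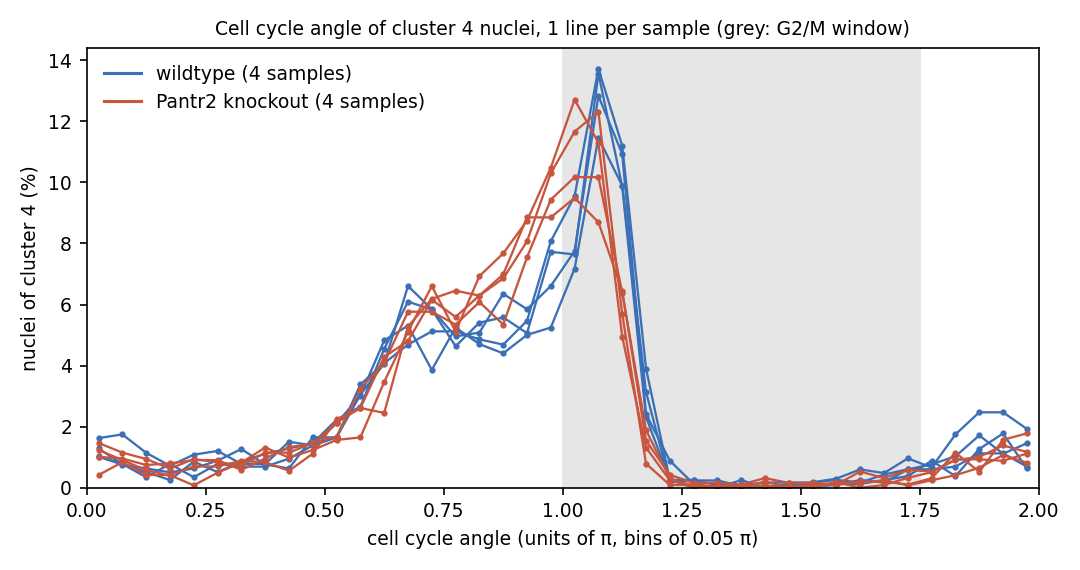
Share of cluster 4 nuclei (y axis, percent) by the deposited cell cycle angle (x axis, units of π, bins of 0.05 π), with 1 line per sample, blue for 4 wildtype and red for 4 knockout samples, and the G2/M window in grey. The members are concentrated below 5/4 π. In the first 0.05 π of the window the wildtype samples lie at 7.18% to 9.55% of cluster 4 and the knockout samples at 9.49% to 12.7%, which overlap.

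Within wildtype, the G2/M-angle nuclei were set beside the other 3017 wildtype nuclei of cluster 4. Genes of mitosis were higher and genes of DNA replication lower at the G2/M angle. The cluster and the angle were computed by the authors from these same counts, so the contrast describes the members and carries no test. Of 9558 genes with at least 10 CPM in either class, 139 (1.45%) were over 2-fold higher in all 4 samples and 34 (0.356%) over 2-fold lower, on the scale of log2(CPM + 1). The lower count was 65 without wildtype replicate 1.

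Pif1, a DNA helicase, showed the highest ratio in all 4 samples, with 250, 268, 241 and 245 CPM at the G2/M angle against 12.1, 18.5, 9.38 and 15.9 CPM in the other nuclei. Cenpe, the kinetochore motor that brings chromosomes to the spindle equator, stood at 359 ± 32.3 against 47.0 ± 7.10 CPM, and Cenpf, a large kinetochore protein, at 377 ± 20.3 against 54.7 ± 6.90 CPM. Hmmr, a spindle protein, stood at 132 ± 14.5 against 19.4 ± 1.92 CPM, and Cep55, which acts at the bridge between dividing cells, at 210 ± 14.3 against 33.1 ± 3.69 CPM. No sample of one class overlapped the other class for these 5 genes. The other genes among the 10 highest were Fam83d, Knstrn, Kpna2, Gas2l3 and Parpbp, with mean log2 ratios from 2.68 for Kpna2 to 3.20 for Fam83d.

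The 8 lists of mitotic genes held 146 genes, of which 139 were measured. Their median log2 ratio was 1.28, beside -0.03 over all genes measured, and 67 of them were over 2-fold higher in all 4 samples. The spindle list went furthest, with 21 of 25 genes over 2-fold higher, among them Aspm (111 ± 13.0 against 14.8 ± 3.57 CPM), which keeps spindle poles focused, and Dlgap5 (122 ± 23.0 against 18.3 ± 4.90 CPM). The chromosomal passenger complex and cytokinesis list followed with 12 of 15, led by Cep55, Ect2 and Anln, while Stmn1 in that list differed by a mean log2 ratio of -0.02.

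Among the mitotic entry kinases and cyclins, 10 of 17 were over 2-fold higher. Cdc25c, the phosphatase that switches on Cdk1, stood at 181 ± 19.0 against 24.7 ± 6.00 CPM. Mybl2, a partner of MuvB that acts from S phase on, went the other way, at 5.91 ± 1.40 against 31.2 ± 6.08 CPM. The kinetochore list had 12 of 31 and the condensin list 4 of 14 genes over 2-fold higher. The checkpoint list had 3 of 9, among them Bub1b at 154 ± 5.04 against 41.0 ± 2.11 CPM, and the cohesin list 4 of 13, among them the cohesin protector Sgo2a at 23.1 ± 4.76 against 4.16 ± 1.91 CPM. In the anaphase promoting complex list 1 of 15 passed, which was the activator Cdc20 (85.8 ± 12.1 against 14.5 ± 3.06 CPM), and its core subunits differed little, for example Anapc4 by a mean log2 ratio of -0.17. Of the 15 centrosome and primary microcephaly genes 2 passed, Nde1 (301 ± 19.9 against 77.5 ± 6.12 CPM) and Stil.

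Replication genes formed the opposite group. None of 36 S phase genes was over 2-fold higher, 14 were over 2-fold lower and 33 were lower in all 4 samples, with a median log2 ratio of -1.13. Mcm6, a subunit of the replicative helicase, stood at 29.1, 19.1, 24.0 and 17.1 CPM at the G2/M angle against 119, 111, 105 and 112 CPM in the other nuclei. Ccne2, a cyclin of S phase entry, was lower still, at 4.30 ± 2.09 against 29.6 ± 5.41 CPM. No gene of the Notch, apical polarity, neurogenic or G1 cyclin lists was over 2-fold different in all 4 samples. Ctnna2, an adherens junction catenin, stood at 1416 ± 48.3 against 2025 ± 155 CPM.

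**Figure D2:**
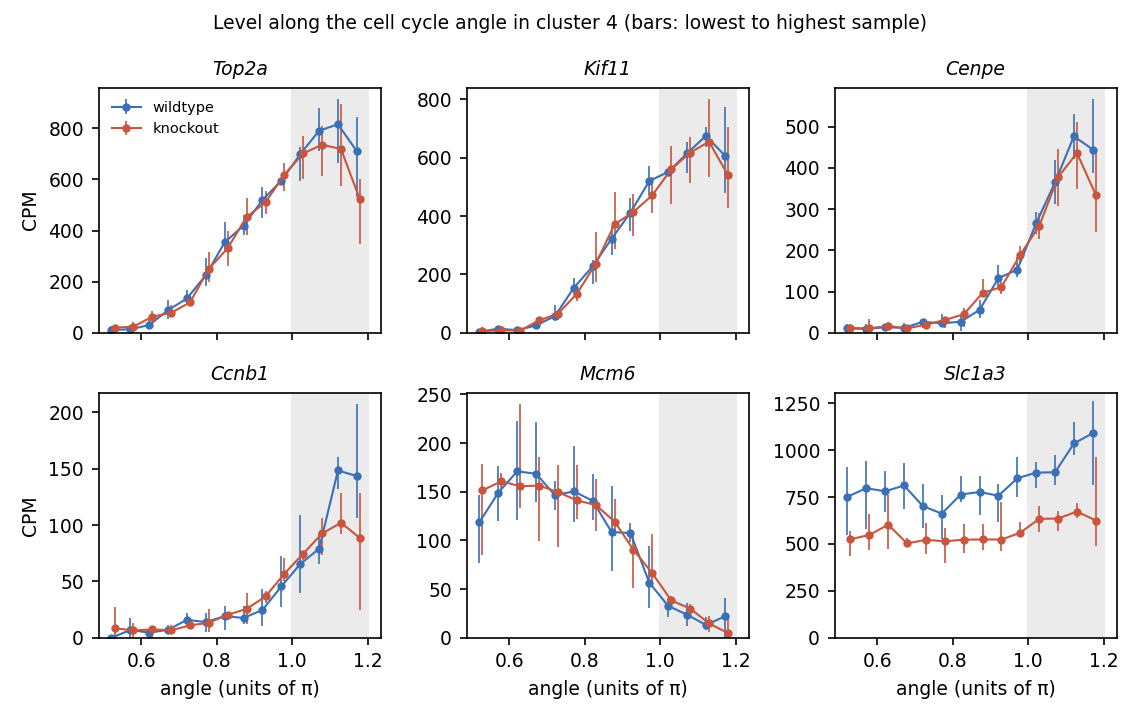
Level (y axis, CPM) of 6 genes in cluster 4 nuclei by cell cycle angle (x axis, units of π, bins of 0.05 π), with points for the pooled nuclei of 4 wildtype (blue) or 4 knockout (red) samples, bars from the lowest to the highest sample and the G2/M window in grey. Top2a, Kif11, Cenpe and Ccnb1 rise toward 1.1 π and Mcm6 falls, while the pooled level of Slc1a3 is lower in knockout in each bin shown.

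The promoters of these genes were read because so many members of the lists were high together. In RefSeq promoters of GRCm38.p6, each 250 bases before to 50 after a start, the CHR letters TTTGAA occurred on either strand in 17.9% of all 32851 promoters. They occurred in 50.4% of 133 promoters of the mitotic lists (121 of 146 genes matched), in 72.4% of the 58 promoters of their genes over 2-fold higher, and in 10.8% of 37 promoters of the S phase list. The variant TTCGAA was found in 1.56%, 9.02%, 8.62% and 5.41% of the same sets, and CCAAT, the letters bound by NF-Y, in 37.4%, 65.4%, 72.4% and 59.5%. A match in these windows is a description of the letters and says nothing of binding. The 3 promoters shown are those of the mitotic list genes among the 10 highest that hold TTTGAA, with TTTGAA or its reverse complement TTCAAA and CCAAT or its reverse complement ATTGG in capitals.
Cenpf, chr1:189688037-189688336, minus strand: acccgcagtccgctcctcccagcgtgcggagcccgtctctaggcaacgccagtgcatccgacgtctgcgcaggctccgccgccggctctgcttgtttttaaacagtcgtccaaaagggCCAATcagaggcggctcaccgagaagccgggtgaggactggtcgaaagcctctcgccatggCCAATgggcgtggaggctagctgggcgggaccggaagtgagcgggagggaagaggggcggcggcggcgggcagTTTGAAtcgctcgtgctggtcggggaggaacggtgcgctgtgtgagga
Hmmr, chr11:40733388-40733687, minus strand: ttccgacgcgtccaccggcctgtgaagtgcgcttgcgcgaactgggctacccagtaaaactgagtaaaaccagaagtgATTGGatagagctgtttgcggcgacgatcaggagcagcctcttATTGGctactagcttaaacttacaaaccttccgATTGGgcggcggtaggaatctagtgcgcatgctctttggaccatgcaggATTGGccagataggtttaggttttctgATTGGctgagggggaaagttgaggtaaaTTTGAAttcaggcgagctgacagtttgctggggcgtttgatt
Cep55, chr19:38054734-38055033, plus strand, the first of 2 overlapping promoters: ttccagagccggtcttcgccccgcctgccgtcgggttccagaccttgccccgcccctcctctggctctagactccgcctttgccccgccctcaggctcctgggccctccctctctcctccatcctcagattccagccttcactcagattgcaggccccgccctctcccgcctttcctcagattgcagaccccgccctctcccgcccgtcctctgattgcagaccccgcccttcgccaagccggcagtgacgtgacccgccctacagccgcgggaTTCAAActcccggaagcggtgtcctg
The letters TTTGAA lie 3 bases after the start in Cenpf, 9 after it in Hmmr and 25 after it in Cep55. Cenpf holds CCAAT 2 times, Hmmr 5 times and Cep55 0 times. Cenpe, the other mitotic list gene among the 10 highest, has 1 CCAAT and no TTTGAA in its window.

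Knockout samples held a smaller share of their cluster 4 nuclei at the G2/M angle. It was 34.98%, 40.8%, 36.2% and 35.2% in the wildtype samples and 29.2%, 31.5%, 31.4% and 29.9% in the knockout samples, so the groups did not overlap. The means were 36.8% ± 2.72 and 30.5% ± 1.12 (SD, n = 4), and the exact two-sided permutation test over 70 arrangements gave p = 0.0286, the smallest p this design allows. Adjusted over the 3 measures tested in this way it was 0.0857, which did not pass 0.05. The share at the S-phase angle was 47.7% ± 2.95 in wildtype and 56.2% ± 1.41 in knockout.

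Members also lay elsewhere within the window. The first 0.05 π held 20.5%, 23.4%, 21.4% and 21.7% of the wildtype and 32.5%, 37.0%, 40.5% and 34.0% of the knockout members, without overlap between the groups. In the third 0.05 π, from 1.1 π up, the shares were 28.5% ± 1.18 in wildtype and 19.3% ± 2.95 in knockout. The mean angle of the members was 1.116 π ± 0.0126 in wildtype and 1.093 π ± 0.0188 in knockout, and these overlapped (exact permutation p = 0.114, adjusted 0.171). Without knockout replicate 1 the exact p of the mean angle was 0.0286. The median number of UMIs per member nucleus was 2881 ± 110 in wildtype and 2906 ± 127 in knockout (exact permutation p = 0.829, also after adjustment). The angle is the authors' value and was not recomputed at an equal number of UMIs per nucleus.

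Knockout and wildtype were then compared gene by gene on the UMIs summed over the members of each sample, to find which genes differ in this population. The apical progenitor markers Ptprz1 and Slc1a3 fell in knockout, as did the growth factor receptor gene Egfr and the Notch ligand gene Jag1. The replication genes Mcm4, Mcm5, Mcm7 and Hells rose, and of 139 mitotic list genes 2 fell and none rose. Of 9871 genes tested, edgeR's quasi-likelihood test called 289 at a Benjamini-Hochberg adjusted p under 0.05 (2.93%), 100 of them higher (1.01%) and 189 lower (1.91%) in knockout. The count was 181 without wildtype replicate 1 and 136 in a narrower window that starts at 1.1 π. It was 148 with equal numbers of nuclei from each 0.05 π of angle in every sample, with members below 1.2 π only. With the same numbers drawn from the whole window without regard to the angle it was 177. The samples of the groups did not overlap for 834 of the genes tested (8.45%) and for 276 of the 289 called. Levels here are CPM with TMM factors, and values after a fold change are standard errors.

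Ptprz1 (ENSMUSG00000068748), a receptor phosphatase of radial glia, stood at 1707, 1632, 1704 and 1669 CPM in wildtype and 963, 1012, 997 and 1021 CPM in knockout. The groups were far apart, and the gene fell by 0.75 ± 0.06 on the log2 scale (edgeR-adjusted p = 6.43e-06). Slc1a3 (ENSMUSG00000005360), the glutamate transporter GLAST of radial glia, stood at 966, 885, 999 and 950 CPM in wildtype and at 594, 669, 668 and 694 CPM in knockout. It fell by 0.53 ± 0.07 on the log2 scale (edgeR-adjusted p = 9.76e-04), without overlap. In the plot of levels along the angle its pooled level was lower in knockout in each bin, while the samples of the groups overlapped in several bins. Both genes are apical progenitor markers, and in that list 2 of 14 tested genes fell and none rose. Over all genes tested, 1.91% fell and 1.01% rose. The median log2 fold change of the list was -0.21, beside -0.0004 over all genes tested. The other 12 did not pass, among them Fabp7, the radial glial fatty acid binding protein, at 712 ± 125 against 528 ± 99.9 CPM (edgeR-adjusted p = 0.118). The summed level of the 14 markers ranged from 6281 to 6654 CPM in wildtype and from 4847 to 5593 CPM in knockout. Without Ptprz1 and Slc1a3, the other 12 summed to 3661 to 4151 CPM in wildtype and 3205 to 3939 CPM in knockout, which overlapped.

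Egfr (ENSMUSG00000020122), the receptor for epidermal growth factor, gave 34.4, 41.3, 33.1 and 59.1 CPM in wildtype and 5.66, 8.36, 3.42 and 11.7 CPM in knockout. Its log2 fold change was -2.55 ± 0.28 (edgeR-adjusted p = 1.30e-04), and the highest knockout sample stayed under the lowest wildtype sample. Jag1, a Notch ligand, gave 47.8, 46.9, 71.5 and 81.7 CPM in wildtype and 30.2, 33.4, 21.4 and 24.5 CPM in knockout, a log2 fold change of -1.11 ± 0.21 (edgeR-adjusted p = 0.00696). It was the 1 gene called among 12 tested Notch genes, beside 2.93% called over all genes tested. The median of the Notch genes was -0.22. Hes5 and Hes1, transcription factors that Notch switches on, stood at 53.6 ± 8.85 against 42.9 ± 8.24 CPM and 23.0 ± 5.51 against 19.5 ± 3.05 CPM and did not pass. With the numbers of nuclei of the matched draw taken without regard to the angle, the edgeR-adjusted p of Jag1 was 0.0959, and over all alternatives it ran from 2.80e-04 to 0.0959.

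The other large decreases were of mixed kinds, and each of the genes named here was also called lower in the other cluster 4 nuclei. Hepacam, a glial adhesion molecule, Ntn1, the secreted guidance cue netrin 1, Ano1, a chloride channel, S100a10, an S100 family protein, Pde7b, a phosphodiesterase, and Afap1l2, an actin filament adaptor, fell by 1.98 (Ntn1) to 2.88 (Afap1l2) on the log2 scale. Knockout replicate 4 stood at 15.2 CPM of Afap1l2, while the other 3 knockout samples gave 2.52, 0.465 and 0.854 CPM and wildtype 25.6 ± 6.27. Without single libraries the edgeR-adjusted p of Hepacam reached 0.0994 (without wildtype replicate 1; it was also above 0.05 without wildtype replicate 3, wildtype replicate 4 or knockout replicate 2) and that of Ano1 0.0528 (without wildtype replicate 1). Over all alternatives these ran from 0.00257 to 0.228 and from 0.00293 to 0.363.

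Further genes that fell were picked after their values were seen. Aldh1l1, an enzyme of folate metabolism, gave 30.9 ± 5.33 against 8.74 ± 2.73 CPM, Tnc, the matrix protein tenascin C, 156 ± 32.9 against 56.6 ± 16.6 CPM, and Slco1c1, a thyroid hormone transporter, 69.1 ± 17.8 against 21.2 ± 10.2 CPM. Spry2, an inhibitor of receptor tyrosine kinase signalling, stood at 38.2 ± 11.3 against 11.6 ± 4.28 CPM. Their log2 fold changes ran from -1.81 for Slco1c1 to -1.52 for Tnc. Chosen in the same way among the genes that rose, Foxp1 stood at 331 ± 22.6 against 529 ± 68.8 CPM and Igf2bp2, an RNA binding protein, at 87.1 ± 11.04 against 155 ± 20.2 CPM. Nfia and Nfib, nuclear factor I proteins picked in the same way, rose by 0.30 ± 0.06 and 0.30 ± 0.07 on the log2 scale. The genes of this paragraph are examples, and their adjusted p-values and sample overlap are not given here. Igf2bp2 had a log2 fold change of 0.84 at the G2/M angle and of 0.36 in the other cluster 4 nuclei.

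The increases on the fixed lists were led by Mcm4, which encodes a subunit of the replicative helicase. It gave 7.58, 5.69, 6.41 and 4.67 CPM in wildtype and 16.4, 16.7, 17.9 and 12.8 CPM in knockout, a log2 fold change of 1.38 ± 0.25 (edgeR-adjusted p = 0.00542). Hells, a chromatin remodeller of replicating cells, gave 54.4 ± 10.2 against 90.2 ± 12.1 CPM, Mcm5 15.2 ± 3.40 against 28.0 ± 5.56 and Mcm7 41.1 ± 2.14 against 59.3 ± 6.74 CPM, and all 3 rose without overlap of the groups. Mcm7 overlaps Cops6 and Ap4m1 on the other strand. The call of Mcm5 depended on wildtype replicates 1, 2 and 3 and on knockout replicates 2 and 3, each of which ended it when left out, and that of Mcm7 was lost without any 1 library except knockout replicate 4.

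Of 33 S phase genes tested, 4 rose and none fell, beside 1.01% of all genes tested that rose. A fold change above 0 was found for 31 of them, beside 49.9% of all genes tested, and their median was 0.30, beside 0.00. With equal numbers of nuclei from each 0.05 π of angle, 0 of 28 S phase genes were called by edgeR, 5 had an unadjusted p under 0.05 and the median was 0.21. In that draw Mcm4 had too few UMIs to be tested, and the edgeR-adjusted p was 0.251 for Hells, 0.399 for Mcm5 and 0.311 for Mcm7, while over all alternatives it ran from 9.55e-04 to 0.993, 0.0173 to 0.399 and 0.0319 to 0.454. The count of S phase genes that rose was 2 without wildtype replicate 1, without knockout replicate 2 or without knockout replicate 3, and 2 by DESeq2. E2f3, a transcription factor of S phase entry, was the 1 called of 13 G1 genes, beside 2.93% called over all genes tested. It stood at 114 ± 4.48 against 161 ± 13.5 CPM (log2 fold change 0.50 ± 0.09). In angle-matched nuclei its edgeR-adjusted p was 0.242, with 0.00280 to 0.699 over all alternatives.

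Of the 139 mitotic list genes tested, 0 rose and 2 fell (1.44%), beside 1.01% and 1.91% over all genes tested. An unadjusted p under 0.05 was found for 11 of them, beside 13.7% of all genes tested, and their median log2 fold change was -0.08. DESeq2 called 0 higher and 2 lower. Hjurp (ENSMUSG00000044783), the chaperone that loads the centromere histone CENP-A, gave 264, 316, 269 and 286 CPM in wildtype and 122, 182, 145 and 112 CPM in knockout, so that the groups did not overlap. It fell by 0.99 ± 0.13 on the log2 scale (edgeR-adjusted p = 5.33e-04) and by 1.06 in the other cluster 4 nuclei. Smc4, a condensin subunit, gave 392, 408, 377 and 390 CPM in wildtype and 223, 327, 329 and 290 CPM in knockout (log2 fold change -0.42 ± 0.11, edgeR-adjusted p = 0.0490). The call of Smc4 was lost without any 1 wildtype replicate and without knockout replicate 1 or 4, and its adjusted p ran from 0.0252 to 0.141 over the alternatives. The angle that defines the window was computed by the authors from the same counts.

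The 4 markers of the population were among the genes that did not pass. Top2a stood at 727 ± 56.7 CPM in wildtype and 668 ± 110 in knockout, Kif11 at 587 ± 21.9 and 565 ± 86.9, Mki67 at 223 ± 44.8 and 217 ± 26.4, and Pax6 at 73.6 ± 2.40 and 71.3 ± 13.3 CPM, before TMM scaling. The groups overlapped for all 4. By edgeR, 0 genes were also called in the spindle list (25 tested, 1 with an unadjusted p under 0.05), the chromosomal passenger list (15 tested, 0), the checkpoint list (9 tested, 1), the anaphase promoting complex list (15 tested, 0), the cohesin list (13 tested, 0), the mitotic entry list (16 tested, 3), the centrosome list (15 tested, 1) and the polarity list (18 tested, 3). DESeq2 called 0 genes in these 8 lists as well. With 2.93% of all genes called, lists of this size hold less than 1 call at the share of all genes, so these counts do not set the lists apart.

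**Figure D3:**
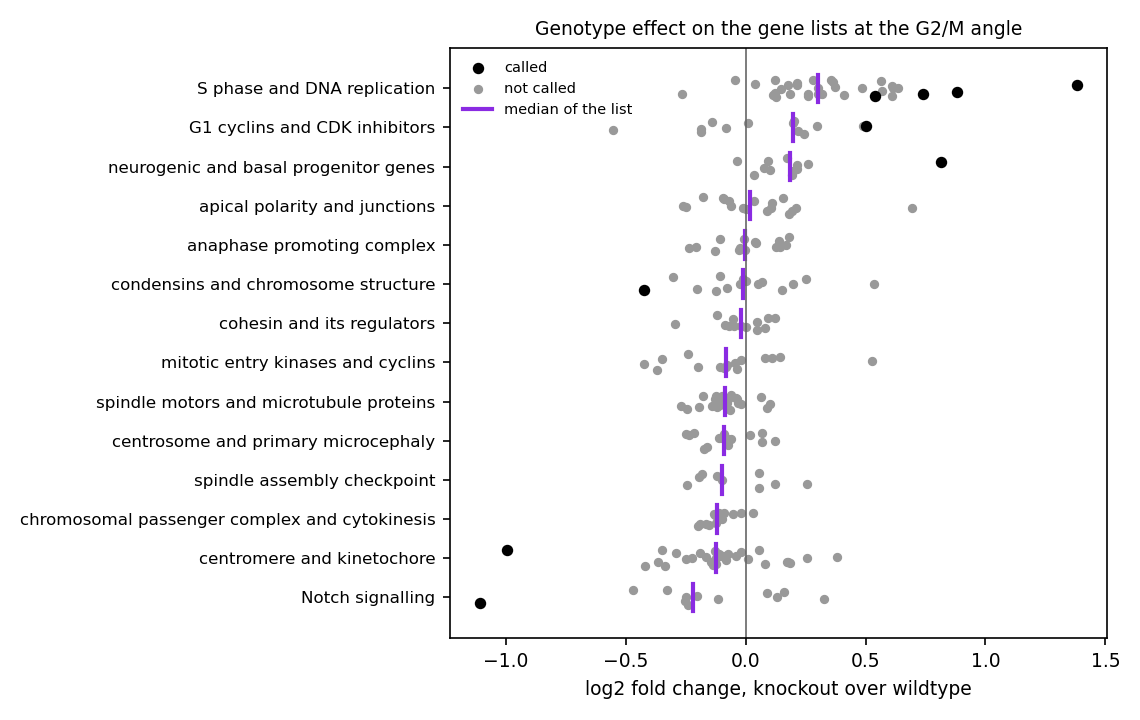
Log2 fold change of knockout over wildtype at the G2/M angle (x axis) for the tested genes of 14 lists (y axis), with 1 point per gene, black where called by edgeR at an adjusted p under 0.05, and a bar at each list's median. The S phase list has the highest median, 0.30, and the Notch list the lowest, -0.22.

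In the neurogenic, excitatory neuron and intermediate progenitor lists 1 gene each rose, beside 1.01% of all genes tested, and counts of 1 in lists of 7 to 12 genes say little of the lists. Rnd2, a GTPase of migrating newborn neurons, gave 36.3 ± 3.17 CPM in wildtype and 63.6 ± 6.80 in knockout (log2 fold change 0.82 ± 0.13, edgeR-adjusted p = 0.00288) and was the 1 called of 12 neurogenic genes. It overlaps Vat1 on the other strand. Neurod6, a transcription factor of excitatory neurons, rose from 179 ± 20.3 to 275 ± 33.3 CPM as the 1 called of 12 excitatory neuron markers. Elavl4, an RNA binding protein of newborn neurons, stood at 173 ± 19.4 against 237 ± 36.2 CPM and was the 1 called of 7 intermediate progenitor markers (edgeR-adjusted p = 0.0462). Leaving out a single library ended that call except for knockout replicate 3, and its adjusted p ran from 0.0270 to 0.339 over all alternatives.

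Summed markers of endothelial or mural cells, oligodendrocyte precursors and microglia were lower in every knockout sample than in any wildtype sample. Those of the other cell types given below overlapped between the genotypes. For comparison, the groups did not overlap for 8.45% of all genes tested. The smallest sample held 874786 UMIs, so the oligodendrocyte precursor and microglial sums of a few CPM rest on very few UMIs. The summed inhibitory neuron markers (8 of 9 listed genes analysed) ranged from 107 to 154 CPM in wildtype and from 32.0 to 115 in knockout. Gad2, which makes GABA, gave 46.1, 43.4, 35.2 and 48.2 CPM in wildtype and 34.0, 13.5, 8.54 and 14.0 CPM in knockout (log2 fold change -1.27 ± 0.29, edgeR-adjusted p = 0.0252), a call that each of wildtype replicates 1, 2 and 4 and knockout replicates 2, 3 and 4 ended when left out, with an adjusted p of 1.34e-04 to 0.388 over the alternatives. The sums were 27.4 to 30.3 against 12.5 to 19.2 CPM for 6 endothelial or mural markers, 7.78 to 16.3 against 1.14 to 5.49 for 5 oligodendrocyte precursor markers, and 15.6 to 153 against 3.35 to 18.3 for 4 meningeal or choroid markers. Pdgfrb, a mural cell receptor, stood at 17.1 ± 1.101 against 6.42 ± 2.47 CPM and was the 1 endothelial or mural marker with enough UMIs to test.

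Sums of the excitatory neuron markers (12 of 13 listed) lay at 2607 to 3992 CPM in wildtype and 2502 to 4936 in knockout, and those of the intermediate progenitor markers (8 of 9) at 386 to 538 and 490 to 680. The red blood cell markers (4 of 6) summed to 312 to 546 against 222 to 421 CPM, the microglial markers (4 of 6) to 5.23 to 7.78 against 2.29 to 4.98 and the 5 Cajal-Retzius markers to 9.34 to 23.3 against 11.7 to 52.9. No analysed marker of these lists was at 0 in all samples. The part of these cell types in the gene changes was not tested.

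The 3 largest increases were those of Gm28438, Tpm3-rs7 and Gm6209, and the first 2 have a near-identical copy. Gm28438 gave 0 UMIs in wildtype and 201, 371, 392 and 151 UMIs in knockout, at least 341-fold higher against 3 UMIs over the wildtype group. mt-Nd3, a mitochondrial subunit of complex I, gave 69.96, 150, 141 and 290 CPM in wildtype and 2.52, 2.32, 0 and 2.34 CPM in knockout. Gm28438 and mt-Nd3 share 345 aligned bases at 99.7% identity, so their UMIs cannot be told apart with certainty. Tpm3-rs7 gave 2 UMIs in wildtype and 210 in knockout, a depth-scaled ratio of 96.2 with a 95% exact binomial interval of 26.3 to 800, and shares 2108 bases at 99.1% identity with Tpm3. Gm6209, for which no such copy was found, gave 1 against 107 UMIs, a depth-scaled ratio of 98.1 with an interval of 17.2 to 3909. These intervals cover counting error only.

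Gm17167 fell from 345, 349, 346 and 355 CPM in wildtype to 36.5, 41.8, 57.2 and 57.2 CPM in knockout, and Gm13307 from 27.5 ± 3.66 to 1.146 ± 0.979 CPM. Near-identical stretches of at least 100 bases occur in 22 other genes for Gm17167 and in 10 for Gm13307, so both are uncertain. Dnajc22, a DnaJ family cochaperone for which no copy was found either, rose, at 2.33, 2.85, 1.07 and 0.778 CPM in wildtype and 54.7, 58.5, 60.7 and 51.4 CPM in knockout (log2 fold change 4.86 ± 0.25, edgeR-adjusted p = 2.90e-08). Gm49450 (15.3 ± 6.10 against 150 ± 29.2 CPM) and 4930578M01Rik (9.70 ± 3.41 against 66.5 ± 17.2 CPM) lie near it on chromosome 15. In the positions of the deposited gene table, which names no build, Gm49450 runs from 98830018 to 98851432, 4930578M01Rik from 98881229 to 98894327 and Dnajc22 from 98991051 to 99002618. Gm49450 overlaps Tuba1b on the same strand and shares 899 bases at 98.6% identity with Tuba1a, and 4930578M01Rik has near-identical stretches in 12 other genes.

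Gm20646 stood at 30.9, 31.3, 27.8 and 30.3 CPM in wildtype and 113, 135, 104 and 99.3 CPM in knockout, without overlap. In the deposited positions it runs from 42734085 to 42783951 on chromosome 1. Its place relative to the knocked out gene was not examined. Hbb-y, an embryonic globin, gave 5.39 ± 2.12 against 16.7 ± 5.69 CPM, while the 4 red blood cell markers tested, all globin genes, had fold changes in the other direction, from -0.59 to -0.33 on the log2 scale, and did not pass (3 had an unadjusted p under 0.05). The call of Hbb-y had an edgeR-adjusted p of 0.0506 without wildtype replicate 1 and of 0.00188 to 0.0506 over the alternatives. Adamtsl4, a secreted matrix protein, rose from 12.7 ± 4.27 to 35.3 ± 10.2 CPM, and Tgds, a sugar nucleotide dehydratase, stood at 3.91 ± 2.13 against 11.4 ± 1.84 CPM. Adamtsl4, Tgds and Egfr share stretches of 100 to 167 bases at 95% identity or more with other genes. The adjusted p of Tgds ran from 0.0194 to 0.0980 (without wildtype replicate 1) over the alternatives and was above 0.05 without wildtype replicates 2 or 3 or knockout replicates 1, 2 or 3.

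**Figure D4:**
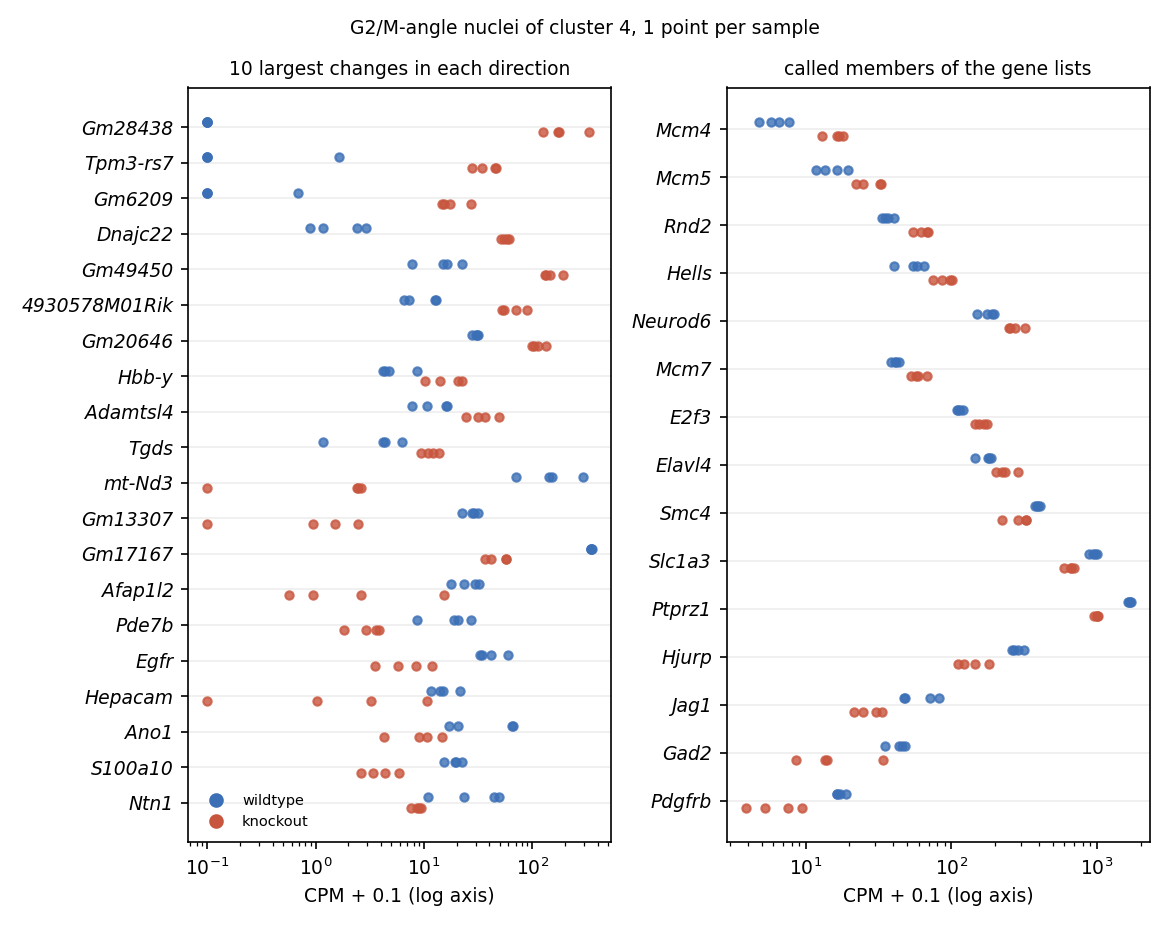
Level of the named genes at the G2/M angle (x axis, CPM + 0.1, log axis), with 1 point per sample, blue for wildtype and red for knockout, the 10 largest changes in each direction on the left and the 15 called members of the lists on the right. The rule for the genes on the left required groups without overlap. The groups of the called members on the right do not overlap either, beside 276 of the 289 called genes and 8.45% of all genes tested.

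The changes were set beside those in the other nuclei of cluster 4 of the same samples, 3017 wildtype and 4297 knockout. There 385 of 11240 genes tested were called by edgeR (3.43%), 92 higher and 293 lower. Of the 289 genes called at the G2/M angle, 178 (61.6%) were called there in the same direction and 0 in the opposite direction. The other 111 were tested there and not called. Among the largest changes, Dnajc22 had a log2 fold change of 5.11 there, Gm20646 of 1.94, Hepacam of -2.31 and Ano1 of -2.45, all called. Ptprz1 had a log2 fold change of -0.81, Slc1a3 of -0.50, Jag1 of -0.94, Egfr of -1.754, Rnd2 of 0.79 and Neurod6 of 0.57 in those nuclei, all called. Mcm4, Mcm5, Hells and Smc4, called at the G2/M angle, had log2 fold changes of 0.19, 0.01, 0.18 and -0.03 there and did not pass. Both comparisons rest on the same 8 libraries.

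A test of the difference asked where the genotype effect at the G2/M angle departs from that in the other nuclei, with both sums of each sample in 1 edgeR fit and the sample as a block. The angle that splits the classes was computed by the authors from the same counts, cell cycle genes included, so the values of the mitotic and S phase genes are given as a description. Of 11119 genes tested, 103 were called (0.926%), 48 with a higher and 55 with a lower effect at the G2/M angle, and 978 had an unadjusted p under 0.05. Of the 139 mitotic list genes tested at the G2/M angle 30 were called (21.6%), all of them lower, with differences from -0.97 to -0.31 on the log2 scale, and with angle-matched nuclei 0 were. Their median log2 fold change was -0.11 at the G2/M angle and 0.39 in the other nuclei, where 29 of the 30 were above 0. Among them were 10 of 25 spindle genes, 6 of 16 mitotic entry genes, 6 of 15 chromosomal passenger genes, 4 of 31 kinetochore genes, 3 of 15 condensin genes and 1 of 9 checkpoint genes.

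Pif1, which is on none of the lists, was also called. It had the highest wildtype ratio of the G2/M angle to the other nuclei, so its values too are given as a description. It stood at 251.1 ± 11.9 CPM in wildtype and 241 ± 39.1 in knockout at the G2/M angle, and in the other nuclei at 12.1, 18.5, 9.38 and 15.9 CPM in wildtype and 27.0, 33.3, 35.4 and 27.9 CPM in knockout. The groups overlapped in the first class and not in the second, with a difference of -1.19 ± 0.15 (edgeR-adjusted p = 2.75e-06). Dlgap5, a spindle protein, differed by -0.97 ± 0.18, with 18.3 ± 4.90 CPM in wildtype and 29.7 ± 2.88 in knockout outside the window. Cenpf stood at 377 ± 20.3 against 313 ± 18.1 CPM inside and 54.7 ± 6.90 against 76.6 ± 13.5 CPM outside the window (difference -0.81 ± 0.10). Its groups overlapped in neither class. Top2a, Kif11 and Mki67 were called too, with differences of -0.44, -0.37 and -0.44.

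In the S phase list 4 of 33 genes had a higher effect at the G2/M angle, beside 48 of all 11119 genes tested. They were Mcm4 (1.17), Mcm5 (0.84), Hells (0.57) and Pola1 (0.36), a subunit of DNA polymerase alpha. The S phase count was 1 without wildtype replicate 2, wildtype replicate 3, wildtype replicate 4 or knockout replicate 1. It was 2 without knockout replicate 4, and the 30 mitotic genes became 17 without wildtype replicate 1. Over all genes, leaving out knockout replicate 1 gave 69 calls.

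The angles of the nuclei were set beside the genotypes in both classes. Inside the window more knockout members lay in its first 0.05 π, as given above, and outside it the last 0.05 π below the window held 8.07%, 13.6%, 10.4% and 11.9% of the other wildtype nuclei and 12.5%, 15.04%, 15.3% and 13.5% of the other knockout nuclei. These last shares overlapped. Of the other nuclei, 75.5% ± 5.65 in wildtype and 80.9% ± 3.08 in knockout lay at the S-phase angle. The remaining angles held 24.5% ± 5.65 and 19.1% ± 3.08, and the samples of the groups overlapped for both shares. The plain mean angle of the other nuclei was 0.813 π ± 0.0169 in wildtype and 0.810 π ± 0.00917 in knockout. It averages nuclei on both sides of angle 0, so it cannot show whether these angles differ. For angle-matched nuclei, 234 members below 1.2 π and 478 other nuclei per sample were drawn with equal numbers from each 0.05 π. In this draw 0 genes were called by edgeR, 609 had an unadjusted p under 0.05, and the smallest adjusted p was 0.0691. With the same numbers of nuclei drawn without regard to the angle 18 genes were called, 3 of them mitotic. The median difference of the spindle list was -0.41 with all nuclei and -0.08 with angle-matched nuclei, that of the chromosomal passenger list -0.36 and -0.14, and that of the mitotic entry list -0.40 and -0.22. The median of the S phase list was 0.35 and 0.24, and the median of all genes was 0.00 in both cases.

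**Figure D5:**
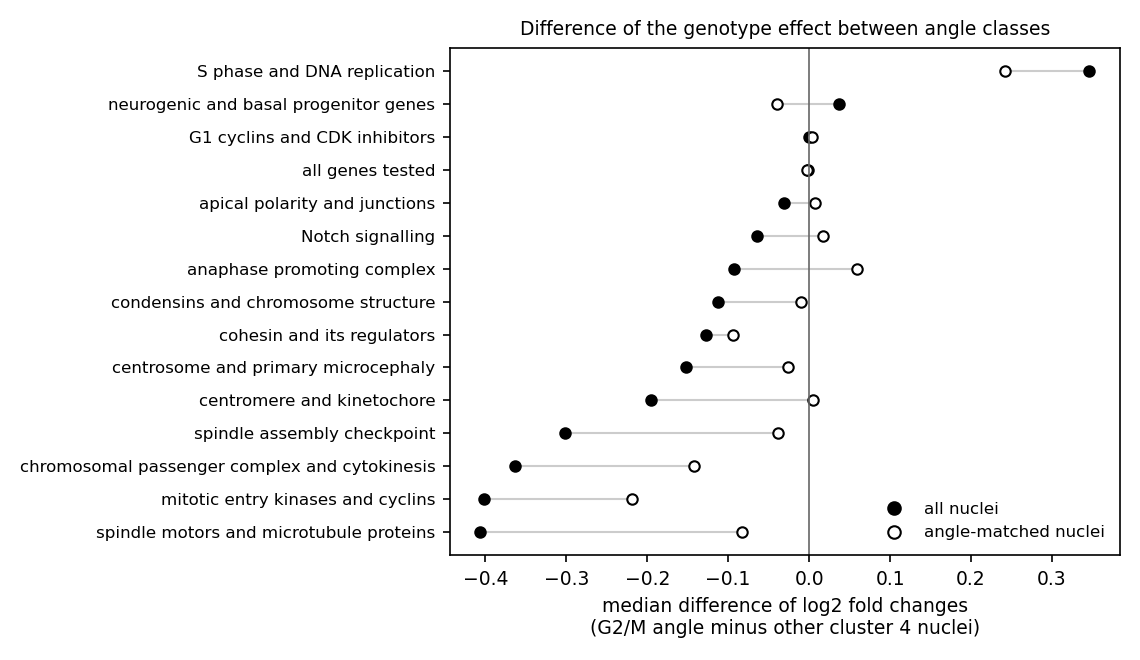
Median difference of the log2 fold changes, G2/M angle minus other cluster 4 nuclei (x axis), for 14 gene lists and all genes tested (y axis), with filled points for all nuclei and open points for angle-matched nuclei. With angle-matched nuclei the spindle list moves from -0.41 to -0.08 and the S phase list from 0.35 to 0.24.

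Of the other named genes, Tmed7, a cargo receptor of the secretory pathway, gave 15.7, 15.6, 24.0 and 16.3 CPM in wildtype and 7.47, 10.1, 5.87 and 6.86 CPM in knockout at the G2/M angle, and 10.8 ± 3.14 against 13.5 ± 4.06 CPM in the other nuclei (difference -1.39 ± 0.32). Bcat2, which breaks down branched amino acids, stood at 24.5 ± 4.08 against 15.8 ± 1.41 CPM and at 9.40 ± 3.58 against 13.1 ± 0.628 CPM (difference -1.12 ± 0.27). Scn2a, a voltage-gated sodium channel of neurons, had the opposite pattern, at 10.0 ± 1.37 against 13.9 ± 8.05 CPM and 21.9 ± 3.50 against 11.3 ± 6.37 CPM (difference 1.37 ± 0.30). Leaving out wildtype replicate 3, knockout replicate 1 or knockout replicate 4 ended the call of Tmed7, and leaving out wildtype replicate 1, wildtype replicate 3, knockout replicate 1 or knockout replicate 2 ended that of Bcat2. The calls of all 3 were lost with angle-matched nuclei, and over the alternatives the edgeR-adjusted p reached 0.466 for Tmed7, 0.793 for Bcat2 and 0.510 for Scn2a.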

How the data were processed

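Nuclei of 4 wildtype and 4 Pantr2 knockout samples were analysed from the authors' deposited UMI counts per gene and nucleus, whole numbers that were not normalised. The submitters' processing notes name kallisto, bustools and mm10, and their versions and the filters on nuclei are not given in the sources used here. The cluster number, the cell cycle angle in radians (named after the tricycle method per the file headers) and the hybrid doublet score of each nucleus are the authors' deposited values. All deposited nuclei were kept. Their gene table has 14166 genes, 1 without a symbol. Of 14162 gene IDs also in GENCODE M21, 352 have the same start there, so its positions were not mixed with GRCm38.

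UMIs were summed per sample over nuclei of cluster 4 inside or outside the window from 1 π to 7/4 π. Gene tests of knockout over wildtype used edgeR 4.0.16 in R 4.3.3, with TMM, filterByExpr, glmQLFit and glmQLFTest, Benjamini-Hochberg adjustment over all genes tested, threshold 0.05. The difference of effects is the interaction of genotype and angle class. CPM carry TMM factors in the genotype comparison and none elsewhere. A fold against 0 UMIs was computed against 3 UMIs over the group. Measures per sample were compared with exact permutation tests. On simulated counts, where 200 genes differed by a log2 value of 1, 82.5% were recovered with 14 false calls in the genotype comparison (9871 genes) and 73.5% with 15 in the difference (11119 genes).

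Named genes are the 10 largest changes in each direction among called genes whose groups did not overlap and whose mean count reached 10 UMIs, every called list member, the 5 largest called differences in each direction, the 10 highest and 10 lowest ratios in wildtype and, per list, members with the largest and smallest ratio. Genes outside this rule are named as chosen after their values were seen, or as markers and unchanged list members. The members, lists and tests were chosen with earlier results of these data known. Near-identical transcripts (at least 95% over 100 bases) of the 20 genes with the largest changes were searched with blastn 2.17.0 in GENCODE M21. Alternatives were other size factors, filters, windows, pseudocounts and doublet scores, DESeq2 1.42.0, an Xist covariate, the replicate block, equal numbers of nuclei and each replicate left out. Windows ending at 5/4 π, S-phase-angle nuclei alone as the comparison and angle-matched or equally many unmatched nuclei were added after the data were seen. Angle matching left out members at 1.2 π or above, so it also shortened the window.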

Additional observations from a re-analysis of the deposited data

Results flagged for a closer look

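In 76 groups of 4 samples, examined for the named genes and the 3 measures per sample, 5 had a sample far from the other 3. Chance gives about 1 in 20 for normally distributed values. A lone sample above 0 is always flagged, as for Tpm3-rs7 and Gm6209, so that rate does not apply to such counts. These were wildtype replicate 4 for Tpm3-rs7 (1.56 CPM, the others at 0), wildtype replicate 1 for Gm6209 (0.583 CPM, the others at 0), wildtype replicate 3 for Hbb-y (8.54 CPM), knockout replicate 3 for mt-Nd3 (0 CPM) and knockout replicate 4 for Afap1l2 (15.2 CPM).

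By edgeR's interaction test the genotype effect at the G2/M angle differed from that in the other cluster 4 nuclei for 103 genes. The angle that splits these classes was computed by the authors from the same counts, so Pif1 and Dlgap5 are given as a description. The 10 given here are those picked by the rule for named genes, the 5 largest called differences in each direction. The difference of log2 fold changes was -4.80 for C1ql4, -1.39 for Tmed7, -1.19 for Pif1, -1.12 for Bcat2, -0.97 for Dlgap5, 1.91 for Sphkap, 1.39 for Otx2os1, 1.37 for Scn2a, 1.37 for Il1rapl2 and 1.37 for 6530403H02Rik. C1ql4 gave 10 and 60 UMIs in wildtype and knockout at the G2/M angle and 0 and 122 UMIs in the other nuclei, so its fitted difference depends on the prior count of the fit. None of these was called with angle-matched nuclei, where C1ql4 was not tested. Leaving out single libraries ended the calls of Sphkap (wildtype replicate 1), Otx2os1 (wildtype replicate 1, knockout replicates 2 and 3), 6530403H02Rik (wildtype replicates 2 and 4, knockout replicates 1 and 4), C1ql4 (wildtype replicates 1, 2 and 4, knockout replicate 2), Tmed7 (wildtype replicate 3, knockout replicates 1 and 4), Bcat2 (wildtype replicates 1 and 3, knockout replicates 1 and 2) and Il1rapl2 (any except knockout replicates 1 and 3).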

How the results depend on the processing

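Of 788 values of single genes under the alternatives, 659 kept their direction and their side of the threshold, 128 kept the direction and lost the call, and 1 reversed: the difference of Il1rapl2 was -0.079 with angle-matched nuclei. The 289 calls became 136 in the narrower window, 148 with angle-matched nuclei, 177 with as many nuclei unmatched and 181 to 278 without 1 replicate. Of the 289 genes, 109, 140 and 156 remained called in the first 3. The 103 called differences became 0 with angle-matched nuclei, 18 with as many nuclei unmatched and 69 to 107 without 1 replicate. The wildtype count of 34 lower genes became 20 with a pseudocount of 5 CPM, 102 in the narrower window and 43 to 65 without 1 replicate. The difference in mean angle, -0.0230 π, became 0.00641 π in the narrower window, -0.0169 π (exact p = 0.0286) in the window ending at 5/4 π and -0.0320 to -0.0169 π without 1 replicate. The difference in median UMIs, 24.1, became -43 in the narrower window and -15.2 to 81.5 without 1 replicate.

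With the replicate block 315 genes were called and 268 of the 289 remained. The difference in the share at the G2/M angle was -6.30 percentage points in 4 pairs, with an exact p of 0.125, the smallest that 4 pairs allow. Same-numbered samples had deviations correlated at 0.139, 0.148, -0.0455 and 0.0343, and not every sample correlated best with its own number, so the numbers were not taken as pairs. Genes with few UMIs are limited by the depth of the smallest samples, 285 nuclei each.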
